A study of Mus musculus with 12 samples.

Results

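The 10 genes described here encode selective autophagy receptors and the LC3 family, with 1 sensor of the membranes on which LC3 is used. They were the receptors Sqstm1, Calcoco1, Nbr1 and Optn, the ubiquitin-like proteins Map1lc3a, Map1lc3b, Gabarap, Gabarapl1 and Gabarapl2, and the lipid-binding protein Wipi1. They were taken by gene name from a table of 29937 genes, each name matched 1 row, and all 10 were among the 12036 genes whose expression was high enough to test. Poly(A) RNA had been sequenced from 4T1, an established mouse mammary carcinoma line that the labels describe as adherent and of WT genotype. The 4 groups held 3 libraries each: cells given OAP2, cells given Oxa, cells given APAP, and PBS, the group without a drug, whose treatment label reads DMSO. The values of the PBS libraries stand under the heading CON, read here as control by inference. The sources used here do not say what the drug codes stand for, nor the doses or treatment times, and the series' design text speaks of xenografts where the sample labels speak of a cell line.

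Autophagy encloses cytoplasm in a membrane sac, the autophagosome, and delivers it to the lysosome. LC3 and GABARAP proteins are cut by ATG4 proteases just after a glycine, and that glycine is then joined to phosphatidylethanolamine in the growing membrane. Receptors bind cargo, often through ubiquitin, and hold it to LC3 or GABARAP through a short LC3-interacting region. Sqstm1, also called p62, additionally binds Keap1, the adaptor that keeps the stress factor NRF2 low, and its own gene is a known NRF2 target. Transcript levels, as measured here, give the supply of messenger RNA and not the amount of autophagy.

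The 5 LC3 and GABARAP coding sequences carry, near their end, the codon of the glycine that is joined to the lipid after cleavage, so their last 14 codons, the stop codon included, are shown, read from GENCODE M21 transcripts on GRCm38, with that glycine codon in capitals:
Map1lc3a: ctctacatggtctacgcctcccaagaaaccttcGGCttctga
Map1lc3b: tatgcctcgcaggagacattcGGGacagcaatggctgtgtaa
Gabarap: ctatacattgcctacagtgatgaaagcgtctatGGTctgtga
Gabarapl1: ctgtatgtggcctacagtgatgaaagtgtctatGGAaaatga
Gabarapl2: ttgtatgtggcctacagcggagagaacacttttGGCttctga
In 4 of them 1 codon lies between the glycine and the stop codon, while Map1lc3b has 5. The glycine is codon 120 in both LC3 genes and codon 116 in the 3 GABARAP genes. Over their whole coding sequences Map1lc3a and Map1lc3b were identical at 76.5% of aligned bases and Gabarap and Gabarapl1 at 74.9%, and the other 8 pairs at 53.4% to 63.8%.

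The receptor side of that contact is shown for Sqstm1, the most abundant of the 10 transcripts, as the stretch of its coding sequence around the LC3-interacting region (GENCODE M21, GRCm38). Capitals mark the 4 codons of the core. Together with the 3 codons for acidic residues just before it, the core spans codons 337 to 343 of 442, counted from the start codon, and 4 further codons are shown on each side:
Sqstm1: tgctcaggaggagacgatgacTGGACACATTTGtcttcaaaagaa

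The 12 libraries held 64071751 to 71500487 counts. Markers of epithelial cells summed to 1046 to 1420 FPKM in every library, whereas 5 endothelial markers summed to at most 0.10 FPKM and 6 fibroblast markers to at most 2.55 FPKM. PBS 2 stood apart: its 7 erythroid markers in the table summed to 232 FPKM, against 0.07 to 0.37 FPKM in the other 11 libraries, and its 8 neutrophil markers to 67.3 FPKM, against 0.01 to 0.72 FPKM. PBS 1 had the highest macrophage sum, 49.96 FPKM over 8 markers, against 15.5 to 24.4 FPKM elsewhere. PBS 2 was also the lowest of all 12 libraries for 5 of the 10 genes (Map1lc3a, Gabarapl1, Calcoco1, Nbr1 and Optn) and the highest for none, so values without it are given beside the results they touch, and its part in them was not tested. In such bulk libraries, fewer cells of a type and less RNA per cell cannot be told apart.

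Levels are FPKM, a unit scaled to gene length and to library size. For the 10 genes that length followed the merged exons of all transcript models, which for some genes include retained introns. Ranks of level between genes therefore depend on these models. Changes are log2 fold changes ± SE from edgeR's quasi-likelihood test over all 12 libraries. A gene was called where the Benjamini-Hochberg adjusted p, taken over all 12036 genes, was below 0.05. Exon numbers given below with gene positions are of the blocks left after merging overlapping exons of all transcript models. The 10 transcripts differed widely in level. Sqstm1 averaged 414 FPKM over the 12 libraries, higher than 99.6% of the genes tested, and made up 73.7% to 82.9% of the summed FPKM of the 10 genes. The others followed in the order Gabarap (24.7), Gabarapl1 (21.9), Gabarapl2 (15.2), Nbr1 (14.6), Optn (8.85), Map1lc3b (5.97), Map1lc3a (5.35), Wipi1 (4.61) and Calcoco1 (1.49 FPKM). Map1lc3a and Calcoco1 varied most, their highest library standing 4.07-fold and 3.83-fold above their lowest, while the other 8 genes spanned 1.33-fold to 1.77-fold.

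**Figure D1:**
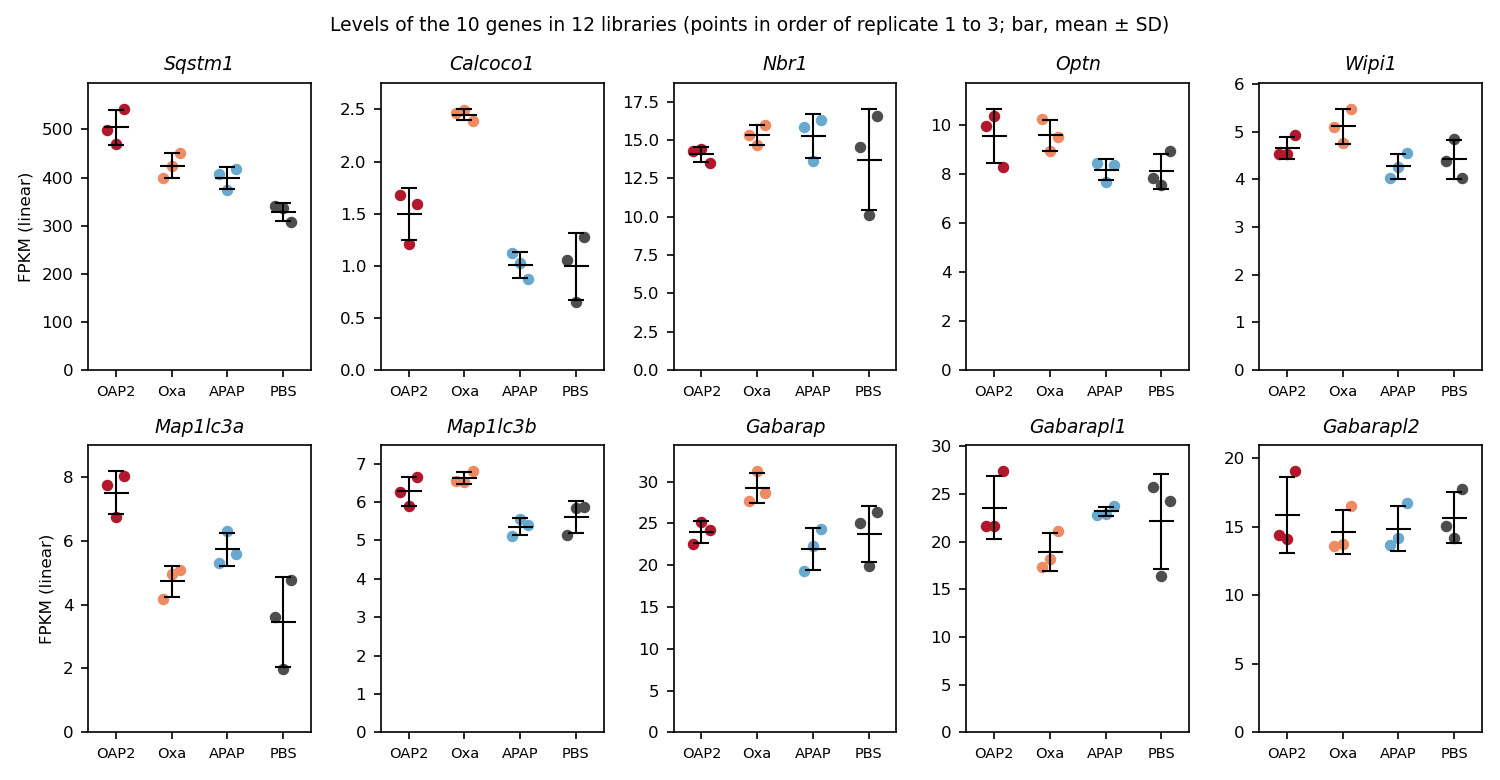
Level of each gene in every library, as FPKM on linear axes that start at 0, with points in the order of replicates 1 to 3 and bars for the mean ± SD of 3 libraries. Sqstm1 and Map1lc3a stand highest in OAP2, Calcoco1 stands highest in Oxa, and PBS 2, the middle PBS point, is the lowest library for 5 genes.

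Against PBS, Sqstm1 and Map1lc3a rose in OAP2, and Sqstm1 and Calcoco1 rose in Oxa, while no gene of the 10 was called for APAP. Thus 2 of 10 genes were called in OAP2, where 5.25% of all tested genes were called and 2.14% were called as higher. In Oxa, 2 of 10 were called, where 10.1% of all tested genes were called and 5.35% were called as higher. In APAP, 0 of 10 were called, where 0.0166% of all tested genes were called; 2 of the 10 (Sqstm1 and Map1lc3a) had an unadjusted p under 0.05, as did 1103 of all genes, and DESeq2 and limma called 0 of the 10 as well. The fitted changes against PBS were positive for 10, 8 and 6 of the 10 genes in OAP2, Oxa and APAP, with medians of 0.14, 0.25 and 0.06, beside medians of -0.00, -0.01 and -0.00 over all genes tested, of which 49.9%, 48.4% and 49.1% were positive. Without PBS 2 the counts of positive values were 6, 7 and 6 of the 10. The 3 comparisons share the same PBS libraries, so a PBS library that is low in a gene raises that gene's fold change in all 3.

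**Figure D2:**
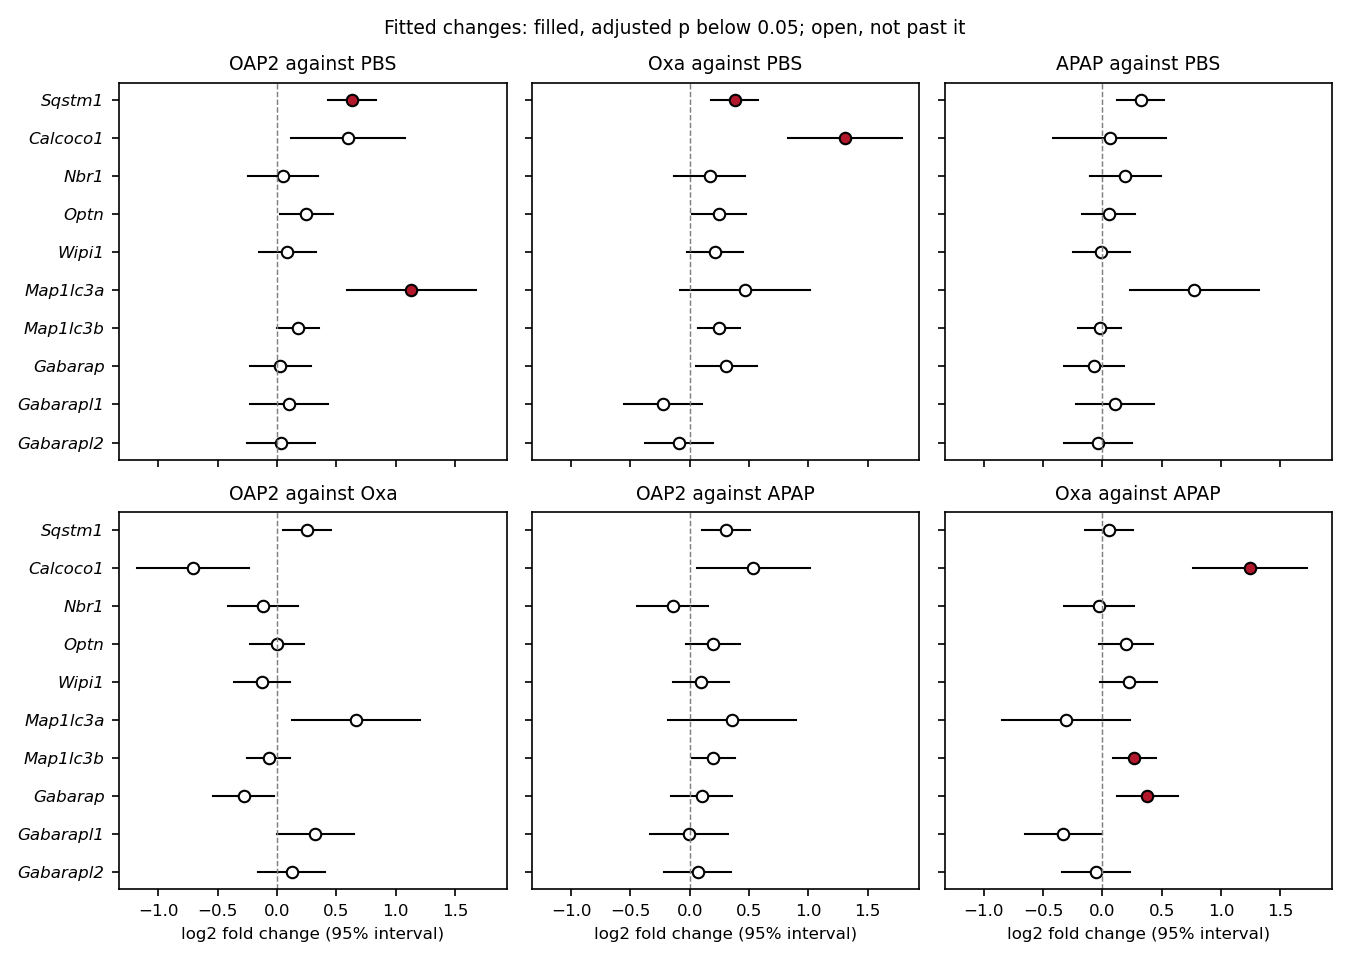
Fitted log2 fold changes of the 10 genes in the 6 comparisons, with 95% intervals. Filled points passed an adjusted p of 0.05: Sqstm1 and Map1lc3a in OAP2 against PBS, Sqstm1 and Calcoco1 in Oxa against PBS, and Calcoco1, Map1lc3b and Gabarap in Oxa against APAP.

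Sqstm1 (ENSMUSG00000015837, GRCm38 chromosome 11, 50199366 to 50210827, minus strand, 8 exons), the receptor for ubiquitinated cargo, measured 499.5, 470.2 and 542 FPKM in OAP2 1 to 3, 399.5, 423 and 451 FPKM in Oxa 1 to 3, 408, 374 and 417 FPKM in APAP 1 to 3, and 340.2, 337 and 307 FPKM in PBS 1 to 3. Every library of the 3 drug groups was above every PBS library, and every OAP2 library was above every Oxa and APAP library, whereas Oxa and APAP overlapped. Sqstm1 rose in OAP2 against PBS by 0.63 ± 0.09 (1.55-fold; adjusted p = 0.00245) and in Oxa against PBS by 0.38 ± 0.09 (1.30-fold; adjusted p = 0.0229). For APAP against PBS the fitted value was 0.32 ± 0.09 with an adjusted p of 0.350, in a comparison in which 2 genes of the 12036 were called. OAP2 exceeded Oxa by 0.25 ± 0.09 (adjusted p = 0.0959) and APAP by 0.31 ± 0.09 (adjusted p = 0.148), neither called by edgeR, while DESeq2 called both. The means therefore ran from OAP2 (504 ± 36.2) through Oxa (425 ± 25.9) and APAP (399.6 ± 22.9) to PBS (328 ± 18.3 FPKM, SD, n = 3 each), and of the neighbours in that order none was called apart by edgeR.

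The call of Sqstm1 in OAP2 against PBS held in all 12 fits that left out a library, with log2 fold changes of 0.57 to 0.69. In Oxa against PBS it was lost without Oxa 1, Oxa 2, Oxa 3, PBS 1 or PBS 3, with adjusted p of 0.0558 to 0.111, and was kept without PBS 2. With only the 2 groups compared in the fit, neither call passed (adjusted p = 0.0975 for OAP2), and with no filter on low values that for Oxa did not. Sqstm1 overlaps 580 exonic bases of Mrnip, which lies on the opposite strand and was listed at 0.40 to 1.33 FPKM. The libraries mark strand, but the sources used here do not say whether counting used it.

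Calcoco1 (ENSMUSG00000023055, chromosome 15, 102706777 to 102722178, minus strand, 15 exons) was the least abundant of the 10 by FPKM. It encodes a receptor for endoplasmic reticulum and Golgi membranes that is also known as a transcriptional coactivator. It measured 1.68, 1.21 and 1.59 FPKM in OAP2, 2.47, 2.49 and 2.39 FPKM in Oxa, 1.12, 1.03 and 0.87 FPKM in APAP, and 1.06, 0.65 and 1.28 FPKM in PBS, with 303 to 1130 counts per library behind them. The 3 Oxa libraries lay above the other 9 and close to each other, the APAP libraries lay within the range of the PBS libraries, and OAP2 lay between, overlapping PBS. Calcoco1 rose in Oxa against PBS by 1.31 ± 0.22 (2.47-fold; adjusted p = 0.00498) and in Oxa against APAP by 1.24 ± 0.22 (2.37-fold; adjusted p = 0.00374). Both calls held in all 12 leave-outs and under the 7 other settings tried, and without PBS 2 the change against PBS was 1.08. In OAP2 against PBS the fitted value was 0.60 ± 0.22 (adjusted p = 0.136), and without PBS 2 it was 0.37. OAP2 stood below Oxa by a fitted -0.71 ± 0.22 at an adjusted p of 0.0508, which edgeR did not call, with a 95% interval of -1.18 to -0.23. That difference was called without PBS 2 (adjusted p = 0.00601), without PBS 3 (adjusted p = 0.0364), by DESeq2, by limma on log2(FPKM + 1) and with only the 2 groups compared.

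The stretches upstream of Sqstm1 and Calcoco1, the only receptors of the set that edgeR called, are shown to let their sequences be set side by side, as the 250 bases before the RefSeq start site, read along the gene's strand (GRCm38.p6). GC boxes, GGGCGG on either strand, are in capitals. The Sqstm1 window is chr11:50210821-50211070 and the Calcoco1 window is chr15:102722179-102722428, both on the minus strand:
Sqstm1: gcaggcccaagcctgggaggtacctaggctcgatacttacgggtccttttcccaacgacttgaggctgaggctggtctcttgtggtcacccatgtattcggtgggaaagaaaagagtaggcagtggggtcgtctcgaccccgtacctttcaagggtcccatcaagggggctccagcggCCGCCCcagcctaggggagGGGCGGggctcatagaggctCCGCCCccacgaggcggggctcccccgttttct
Calcoco1: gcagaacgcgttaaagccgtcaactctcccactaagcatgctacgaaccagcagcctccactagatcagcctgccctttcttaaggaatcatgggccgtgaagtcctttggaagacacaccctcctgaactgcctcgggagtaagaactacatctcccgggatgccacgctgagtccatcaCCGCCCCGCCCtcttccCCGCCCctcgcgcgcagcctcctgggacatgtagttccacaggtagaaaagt
Each window held 3 GC boxes, and in Calcoco1 the first pair overlaps by 1 base. A GC box occurred in 35.7% of the 32851 RefSeq promoters of 300 bases (250 before and 50 after the start). Neither 300-base window held the E-box CACGTG (7.15% of promoters), the antioxidant element core TGACNNNGC (12.4%), the C/EBP-ATF element TGATGNAA (3.97%) or the FOXO element GTAAACA (3.65%), searched on both strands. Among the other genes with an entry, Map1lc3b held 1 antioxidant element core, and Gabarap, Gabarapl1, Gabarapl2, Nbr1, Optn and Wipi1 held none of these 4 motifs. A match of letters is not a measured binding site, and no match says only that these letters are not in the window.

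The other receptors, Nbr1 and Optn, were not called in any comparison. Nbr1 (ENSMUSG00000017119, chromosome 11, 101552149 to 101581951, plus strand), a receptor for ubiquitinated cargo that works beside p62, measured 14.3, 14.4 and 13.5 FPKM in OAP2, 15.3, 14.7 and 16.0 FPKM in Oxa, 15.9, 13.6 and 16.3 FPKM in APAP, and 14.5, 10.1 and 16.6 FPKM in PBS. The low value was PBS 2, and the other 11 libraries lay between 13.5 and 16.6 FPKM. Its fitted values ran from -0.14 ± 0.14 (OAP2 against APAP) to 0.19 ± 0.14 (APAP against PBS), and without PBS 2 the values against PBS were -0.13 in OAP2, -0.01 in Oxa and 0.02 in APAP. Optn (ENSMUSG00000026672, chromosome 2, 5020642 to 5064045, minus strand), the optineurin receptor of damaged mitochondria and bacteria, measured 9.96, 10.4 and 8.30 FPKM in OAP2, 10.3, 8.95 and 9.53 FPKM in Oxa, 8.47, 7.68 and 8.37 FPKM in APAP, and 7.85, 7.56 and 8.93 FPKM in PBS. The Oxa libraries were all above the PBS libraries by a narrow gap, and OAP2 3 fell among the PBS libraries. Its fitted changes against PBS were 0.25 ± 0.11 in OAP2 (adjusted p = 0.197), 0.25 ± 0.11 in Oxa (adjusted p = 0.147) and 0.05 ± 0.11 in APAP.

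Of the LC3 genes, Map1lc3a rose in OAP2 against PBS, while Map1lc3b did not pass the test there; the difference between the genes was not tested. Map1lc3a (ENSMUSG00000027602, chromosome 2, 155276297 to 155278073, plus strand, 4 exons), which encodes LC3A, measured 7.73, 6.75 and 8.02 FPKM in OAP2, 4.18, 4.94 and 5.08 FPKM in Oxa, 5.31, 6.29 and 5.58 FPKM in APAP, and 3.62, 1.97 and 4.77 FPKM in PBS. The OAP2 libraries were the highest 3 of the 12, the APAP libraries came next, the Oxa libraries overlapped PBS, and PBS 2 was lowest. The rise in OAP2 against PBS was 1.13 ± 0.25 (2.19-fold; adjusted p = 0.0212) and rested on 189 to 828 counts per library. It was 0.85 without PBS 2 (adjusted p = 0.00766), and the call was lost without OAP2 1 (adjusted p = 0.0694), with no filter on low values and with only the 2 groups compared (adjusted p up to 0.185). The fitted value was 0.77 ± 0.25 for APAP against PBS (adjusted p = 0.398; 0.50 without PBS 2) and 0.47 ± 0.25 for Oxa against PBS (adjusted p = 0.257; 0.19 without PBS 2). OAP2 against Oxa gave 0.67 ± 0.25 (adjusted p = 0.101), which was called without PBS 2 (adjusted p = 0.00987), and OAP2 against APAP gave 0.36 ± 0.25 (adjusted p = 0.529).

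Map1lc3b (ENSMUSG00000031812, chromosome 8, 121590361 to 121598760, plus strand, 3 exons) encodes LC3B, the form most used as a marker of autophagosomes. It measured 6.27, 5.91 and 6.66 FPKM in OAP2, 6.54, 6.52 and 6.80 FPKM in Oxa, 5.11, 5.57 and 5.41 FPKM in APAP, and 5.14, 5.84 and 5.86 FPKM in PBS. Oxa and OAP2 overlapped, and both lay above APAP and PBS in every library. Map1lc3b rose in Oxa against APAP by 0.27 ± 0.08 (1.21-fold; adjusted p = 0.0442), and the value for Oxa against PBS was 0.25 ± 0.08 (adjusted p = 0.0753), which was called without PBS 2 (0.28, adjusted p = 0.0280), without OAP2 3 (adjusted p = 0.0476) and by DESeq2. For OAP2 it was 0.18 ± 0.08 against PBS (adjusted p = 0.251) and 0.20 ± 0.08 against APAP (adjusted p = 0.269). The call against APAP held in 3 of the 12 leave-outs (adjusted p up to 0.144). Map1lc3b overlaps 58 exonic bases of Zcchc14, which lies on the opposite strand and was listed at 14.25 to 21.82 FPKM. Of the 100-base stretches of Map1lc3b transcripts, 2.88% occur in transcripts of other genes, most of them in Gm6055, which was listed at 11.1 to 19.9 FPKM and was not called in any comparison. The sources used here do not say how the counting treated reads of both genes, so the level of Map1lc3b is less certain than that of Map1lc3a, which shared no such stretch.

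By FPKM, the 3 GABARAP genes each stood above either LC3 gene. For Map1lc3b this rests on a merged exonic length of 7517 bases, against 1844, 2013 and 2325 bases for Gabarap, Gabarapl1 and Gabarapl2. Its counts per library (3042 to 4374) overlapped those of the 3 GABARAP genes (2816 to 4531, 2671 to 4815 and 2507 to 3864). Gabarap (ENSMUSG00000018567, chromosome 11, 69991143 to 69994951, plus strand), the founding member of its branch, measured 22.5, 25.2 and 24.2 FPKM in OAP2, 27.7, 31.2 and 28.7 FPKM in Oxa, 19.3, 22.4 and 24.3 FPKM in APAP, and 25.0, 19.9 and 26.3 FPKM in PBS. The Oxa libraries were the highest 3 of the 12, and the other groups overlapped. Gabarap rose in Oxa against APAP by 0.38 ± 0.12 (1.30-fold; adjusted p = 0.0466), a call that held in 3 of the 12 leave-outs (adjusted p up to 0.174). It was 0.31 ± 0.12 in Oxa against PBS (adjusted p = 0.113), 0.03 ± 0.12 in OAP2 against PBS, and -0.28 ± 0.12 in OAP2 against Oxa (adjusted p = 0.144). Without PBS 2 the values against PBS were 0.20 in Oxa and -0.08 in OAP2, and that for OAP2 against Oxa, still -0.28, was called (adjusted p = 0.0478).

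Gabarapl1 (ENSMUSG00000030161, chromosome 6, 129533160 to 129542346, plus strand), known as a member that FOXO factors induce, had its lowest group mean where Gabarap had its highest. It measured 21.7, 21.7 and 27.4 FPKM in OAP2, 17.4, 18.2 and 21.1 FPKM in Oxa, 22.8, 23.0 and 23.7 FPKM in APAP, and 25.7, 16.4 and 24.3 FPKM in PBS. The Oxa libraries lay below all OAP2 and APAP libraries, and below PBS 1 and PBS 3 but not PBS 2. With all 12 libraries the fitted values were -0.22 ± 0.15 for Oxa against PBS (adjusted p = 0.381), 0.32 ± 0.15 for OAP2 against Oxa (adjusted p = 0.184) and -0.33 ± 0.15 for Oxa against APAP (adjusted p = 0.162), and none was called. Without PBS 2 all 3 were called, at -0.40, 0.32 and -0.33 (adjusted p = 0.0215, 0.0362 and 0.0303). Of its transcript stretches, 18.0% are shared with 1700101I11Rik, which overlaps it on the opposite strand and was listed at no more than 0.05 FPKM. Gabarapl2 (ENSMUSG00000031950, chromosome 8, 111940703 to 111953612, plus strand), also called GATE-16, measured 14.4, 14.1 and 19.0 FPKM in OAP2, 13.6, 13.8 and 16.5 FPKM in Oxa, 13.6, 14.2 and 16.7 FPKM in APAP, and 15.1, 14.1 and 17.8 FPKM in PBS. All 4 groups overlapped, the fitted values lay between -0.09 ± 0.13 and 0.12 ± 0.13, and no comparison was called.

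Summed over the family, the 5 LC3 and GABARAP transcripts reached 77.2 ± 7.07 FPKM in OAP2, 74.1 ± 4.44 in Oxa, 71.1 ± 4.81 in APAP and 70.6 ± 10.9 in PBS (SD, n = 3 each). The means lay closer together than the SD of PBS. That SD rests on PBS 2, at 58.2 FPKM, beside 74.6 in PBS 1 and 78.9 in PBS 3. PBS 1 and PBS 3 lay above the Oxa and APAP means, and the sums were not tested. The 2 LC3 genes alone summed to 13.8 ± 1.03 FPKM in OAP2, 11.4 ± 0.587 in Oxa, 11.1 ± 0.725 in APAP and 9.07 ± 1.43 in PBS. Within the family sum, Map1lc3a took 9.17% to 10.7% of it in OAP2, 6.03% to 6.62% in Oxa, 7.37% to 8.82% in APAP and 3.38% to 6.04% in PBS. Gabarap took 28.4% to 34.2% in OAP2, 36.7% to 41.8% in Oxa, 29.1% to 32.1% in APAP and 33.3% to 34.2% in PBS. Gabarapl1 took 29.4% to 32.1% in OAP2, 24.4% to 27.0% in Oxa, 31.3% to 34.5% in APAP and 28.1% to 34.5% in PBS. In these shares the Oxa libraries were above all others for Gabarap and below all others for Gabarapl1, PBS 2 included. A share can move because another member moves, and the shares are given as a description. The weight of each gene in the sums and shares depends on the merged exonic length behind its FPKM, which was longest for Map1lc3b.

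**Figure D3:**
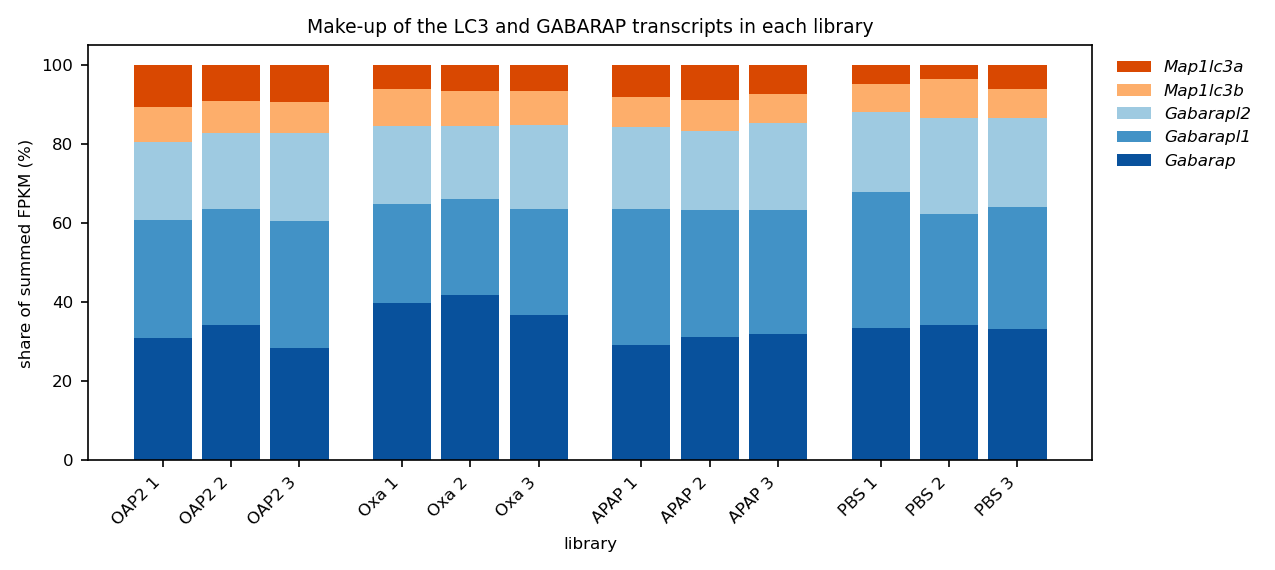
Share of each gene in the summed FPKM of the 5 LC3 and GABARAP genes, as stacked bars from 0 to 100% for each library. Gabarap takes 36.7% to 41.8% in the 3 Oxa libraries and at most 34.2% in the other 9, and Map1lc3a takes at least 9.17% in the 3 OAP2 libraries and at most 8.82% elsewhere.

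Wipi1 (ENSMUSG00000041895, chromosome 11, 109573331 to 109611967, minus strand) binds phosphatidylinositol 3-phosphate on the forming autophagosome. It measured 4.52, 4.52 and 4.93 FPKM in OAP2, 5.10, 4.75 and 5.47 FPKM in Oxa, 4.02, 4.25 and 4.55 FPKM in APAP, and 4.38, 4.85 and 4.03 FPKM in PBS. Oxa lay above APAP in every library and overlapped the other groups. The fitted values were 0.22 ± 0.11 for Oxa against APAP (adjusted p = 0.190), 0.21 ± 0.11 for Oxa against PBS (adjusted p = 0.238) and 0.09 ± 0.11 for OAP2 against PBS, and no comparison of Wipi1 was called.

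Between the drugs, edgeR called members in Oxa against APAP and in neither comparison of OAP2. In Oxa against APAP, Calcoco1, Map1lc3b and Gabarap rose, 3 of 10 beside 15.4% of all tested genes called and 8.21% called as higher. In OAP2 against Oxa, 0 of the 10 were called by edgeR, beside 12.9% of all tested genes. There 4 had an unadjusted p under 0.05 (Calcoco1, Sqstm1, Map1lc3a and Gabarap), as did 3346 of the 12036 genes. DESeq2 called 3 of the 10 and 2148 of all genes, limma on log2(FPKM + 1) called 1 and 1424, and edgeR without PBS 2 called 4 and 2743. In OAP2 against APAP, 0 were called, beside 0.474% of all tested genes. There 3 had an unadjusted p under 0.05 (Sqstm1, Calcoco1 and Map1lc3b), as did 1835 of all genes. Limma called 0 of the 10 and 64 of all genes, and DESeq2 called Sqstm1 and 506 of all genes. Groups of libraries did not overlap for 7 of the 10 genes in Oxa against APAP (47.8% of all tested genes), 6 in OAP2 against Oxa (36.1%), 4 in OAP2 against APAP (25.7%), 5 in Oxa against PBS (29.1%), 3 in OAP2 against PBS (18.7%) and 2 in APAP against PBS (15.9%).

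**Figure D4:**
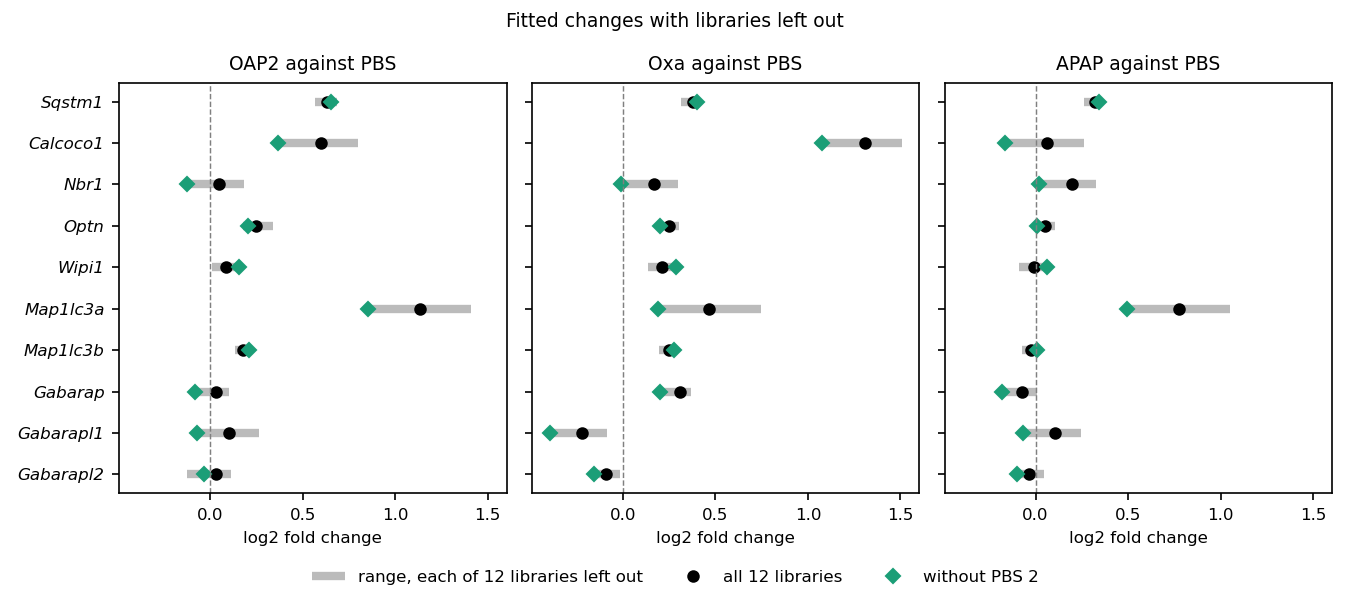
Fitted log2 fold changes against PBS with all 12 libraries (black), without PBS 2 (green) and over the fits that each left out 1 library (grey range). Without PBS 2, Calcoco1, Map1lc3a, Nbr1, Gabarapl1, Gabarap, Gabarapl2 and Optn shift to lower values in all 3 comparisons. Map1lc3b and Wipi1 shift to higher values, while the values for Sqstm1 stay close to those from all libraries.

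Over the 12 libraries, the genes among 6568 with a mean of at least 5 FPKM whose library-scaled log2 counts tracked a called gene most closely were picked by Pearson's r, as a description in which all points share the same libraries. For Sqstm1 these were Ftl1, the ferritin light chain (r = 0.954), Rcan1, a calcineurin regulator (0.932), and Slu7, a splicing factor (0.924). Ftl1 averaged 1253 FPKM in OAP2, 1026 in Oxa, 937 in APAP and 852 in PBS, the same order of groups as Sqstm1. For Map1lc3a they were the kinesin subunit Kif3a (0.951), the corepressor Nab1 (0.917) and Fam114a2 (0.904). For Calcoco1 they were the heat shock factor Hsf1 (0.920), the transcription factor Usf1 (0.916) and Thap11 (0.907), each with its highest mean in Oxa. For Map1lc3b they were Cip2a (0.941), Uqcc3 (0.925) and Spag7 (0.914), and for Gabarap they were Wasf1 (0.885), Kank2 (0.877) and Flot1 (0.871). Within the 10 genes the closest pair was Map1lc3b with Calcoco1 (0.769), followed by Gabarap with Calcoco1 (0.745), Map1lc3b with Wipi1 (0.732) and Sqstm1 with Map1lc3a (0.723), and the most opposed pair was Gabarapl1 with Wipi1 (-0.438).

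The rest of the pathway was read from 92 other genes in 9 lists, of which 87 were tested. In OAP2 against PBS 5 rose and 1 fell (6.90% called), in Oxa against PBS 10 rose and 2 fell (13.8%), and in APAP against PBS 0 were called, by edgeR and by DESeq2 alike, while 7 had an unadjusted p under 0.05. The median log2 fold changes of the 87 genes were 0.07, 0.03 and -0.00 in those comparisons. In OAP2 against Oxa 6 were higher and 3 lower (10.3%), in OAP2 against APAP 1 was higher (1.15%), and in Oxa against APAP 12 were higher and 5 lower (19.5%). These shares lay near those of all tested genes, from 0.0166% in APAP against PBS to 15.4% in Oxa against APAP, and are not read as a result about the pathway. Without PBS 2 the counts were larger, at 16 up and 4 down in OAP2 against PBS and 17 up and 10 down in Oxa against PBS.

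At initiation, 1 of 8 tested genes rose in OAP2 against PBS and 2 in Oxa against PBS. The kinase gene Ulk2 rose in OAP2, with 3.81, 4.76 and 5.13 FPKM from its lowest to its highest library, against 2.77, 3.10 and 3.25 FPKM in PBS (0.60 ± 0.15, adjusted p = 0.0363), a call kept in 5 of 12 leave-outs. Ulk2 was lowest in Oxa, at 1.79, 2.29 and 2.61 FPKM, and OAP2 exceeded Oxa by 1.04 ± 0.15 (adjusted p = 0.00111) in all 12 leave-outs. Its partner kinase Ulk1 (0.60 ± 0.16) and Atg101, a subunit of the same complex (0.71 ± 0.14, adjusted p = 0.00813), rose in Oxa against PBS. The call of Atg101 held in all 12 leave-outs and that of Ulk1 in 7. Of 8 genes of the lipid kinase complex that makes phosphatidylinositol 3-phosphate, Atg14, its targeting subunit, rose in Oxa against PBS (0.54 ± 0.16, adjusted p = 0.0475), with 2 of 12 leave-outs keeping the call. Rubcn, an inhibitor of that complex, was lower in OAP2 than in Oxa (-0.36 ± 0.10, adjusted p = 0.0359), a call kept in 3 of 12 leave-outs. Of the 7 other settings tried, 5 kept that call, which was lost with no filter and with the replicate block. The calls of Ulk2 in OAP2 against PBS and of Atg14 in Oxa against PBS were each kept in 2 of those 7.

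In membrane supply, Wdr45, a relative of Wipi1 that encodes the phosphoinositide-binding protein WIPI4, rose in OAP2 and in Oxa against PBS. It measured 4.65, 4.99 and 5.67 FPKM in OAP2, 6.25, 6.46 and 6.48 FPKM in Oxa, 3.88, 3.91 and 4.29 FPKM in APAP, and 3.17, 3.46 and 3.55 FPKM in PBS, each from lowest to highest. The 4 groups did not overlap. Wdr45 rose in Oxa against PBS by 0.92 ± 0.11 (adjusted p = 0.00112, kept in all 12 leave-outs) and in OAP2 against PBS by 0.60 ± 0.11 (adjusted p = 0.00905, kept in 11, the exception being without OAP2 1). Vmp1, a scramblase needed to form autophagosomes, was higher in OAP2 than in Oxa (44.4 ± 5.30 against 28.1 ± 3.28 FPKM; 0.67 ± 0.13, adjusted p = 0.00677, kept in all 12 leave-outs) and lower in Oxa than in APAP (-0.51 ± 0.13, adjusted p = 0.0228, kept in 8). The enzymes that join LC3 and ATG12 to their targets gave no call by edgeR or limma with all 12 libraries in any of the 6 comparisons among 10 tested genes, of which at most 2 per comparison had an unadjusted p under 0.05. The smallest p was that of the E2-like enzyme Atg3 in OAP2 against Oxa (0.40 ± 0.14, adjusted p = 0.0693). DESeq2 called Atg3 there and Atg7, the E1-like enzyme, named after its values were seen, in OAP2 against PBS. Without PBS 2, edgeR called Atg3 in OAP2 against Oxa, 1 of these enzymes in OAP2 against PBS and 2 in Oxa against PBS.

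Of the 12 other cargo receptors tested, edgeR and limma called 0 in OAP2 against PBS, where 2 had an unadjusted p under 0.05, and by edgeR 2 rose and 1 fell in Oxa against PBS. In OAP2 against PBS DESeq2 called the ubiquitin-binding receptor Tax1bp1, named after its values were seen, and without PBS 2 edgeR called 3 receptors there. Stbd1, a receptor for glycogen, measured 70.5, 76.7 and 85.9 FPKM in OAP2, 46.8, 47.2 and 51.6 FPKM in Oxa, 66.1, 69.2 and 74.3 FPKM in APAP, and 68.2, 69.7 and 72.8 FPKM in PBS, from lowest to highest. All Oxa libraries lay below the other 9. Stbd1 fell in Oxa against PBS by 0.53 ± 0.09 on the log2 scale (adjusted p = 0.00525) and stood higher in OAP2 than in Oxa (0.69 ± 0.09, adjusted p = 0.000610), both in all 12 leave-outs. The mitochondrial receptors Bnip3 (0.81 ± 0.24, adjusted p = 0.0466) and Bnip3l (0.39 ± 0.11, adjusted p = 0.0455) rose in Oxa against PBS, with 3 and 1 of the 12 leave-outs keeping the call, and Bnip3 ranged from 6.42 to 14.6 FPKM among the Oxa libraries. Of the 7 other settings, 2 kept the call of Bnip3 and 3 that of Bnip3l. Tollip, a ubiquitin-binding receptor, was higher in OAP2 than in Oxa (0.31 ± 0.09, adjusted p = 0.0393, kept in 3 of 12 leave-outs and 3 of the 7 other settings).

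Among 9 kinases and partners of the receptors, Keap1, which binds p62 directly, rose in both comparisons in which Sqstm1 did. Keap1 measured 11.2, 12.2 and 12.4 FPKM in OAP2, 13.3, 13.3 and 13.5 FPKM in Oxa, 8.86, 9.90 and 10.8 FPKM in APAP, and 8.49, 9.06 and 9.88 FPKM in PBS, from lowest to highest. It rose in OAP2 against PBS by 0.39 ± 0.10 (adjusted p = 0.0311, kept in 9 of 12 leave-outs and 4 of the 7 other settings). That call was lost with no filter, with only the 2 groups compared and with the replicate block. Keap1 rose in Oxa against PBS by 0.56 ± 0.10 (adjusted p = 0.00525, kept in all 12 leave-outs). It was higher in Oxa than in APAP (0.41 ± 0.10, adjusted p = 0.0137, kept in 10). Both Oxa calls were kept in all 7 other settings. The Oxa libraries were the highest 3 for Keap1, where the OAP2 libraries were for Sqstm1. Azi2, an adaptor of the kinase TBK1, fell in Oxa against PBS by 0.59 ± 0.13 on the log2 scale (adjusted p = 0.0140, kept in 9 of 12 leave-outs), and Prkci, an atypical protein kinase C that binds p62, fell in OAP2 against PBS by 0.34 ± 0.08 on that scale (adjusted p = 0.0284, kept in 5). Ikbke, a kinase related to TBK1, was higher in Oxa than in APAP (0.76 ± 0.22, adjusted p = 0.0383, kept in 6).

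Fusion and lysosome genes gave few edgeR calls against PBS with all 12 libraries. Of 10 fusion genes, edgeR and limma called 0 in OAP2 or Oxa against PBS, where 2 and 4 had an unadjusted p under 0.05. DESeq2 called the SNARE gene Snap29, named after its values were seen, in both, and without PBS 2 edgeR called 1 fusion gene in OAP2 and 3 in Oxa against PBS. In Oxa against APAP the SNARE gene Vamp8 (0.46 ± 0.14, kept in 3 of 12 leave-outs) and the tethering subunit Vps41 (0.50 ± 0.13, kept in 7) were higher and the tether Epg5 was lower (-0.55 ± 0.14, adjusted p = 0.0200, kept in 8). Of 13 lysosomal genes, 2 rose in Oxa against PBS, among them Ctsa, the protective protein and carboxypeptidase (0.43 ± 0.10, adjusted p = 0.0199, kept in 8 of 12 leave-outs). Lamp2, a major lysosomal membrane protein, was higher in OAP2 than in Oxa (0.42 ± 0.12, adjusted p = 0.0423, kept in 4 of 12 leave-outs and 3 of the 7 other settings). Ctsa was also higher in Oxa than in APAP (0.49 ± 0.10, adjusted p = 0.00863, kept in all 12 leave-outs). Among 8 tested transcriptional regulators, Tfe3, a relative of TFEB, rose in OAP2 against PBS (0.37 ± 0.10, adjusted p = 0.0473, kept in 3 of 12 leave-outs and 2 of the 7 other settings). The stress factor Ddit3 was the only pathway gene called in OAP2 against APAP by edgeR (0.62 ± 0.09, adjusted p = 0.0152, kept in 7 of 12 leave-outs), and it also rose against PBS in OAP2 and in Oxa in all 12 leave-outs. Xbp1, a factor of the unfolded protein response, was higher in OAP2 than in Oxa (0.39 ± 0.09, adjusted p = 0.0152, kept in 10). Tfeb itself, at 0.42 to 1.15 FPKM, was too low to be tested.

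**Figure D5:**
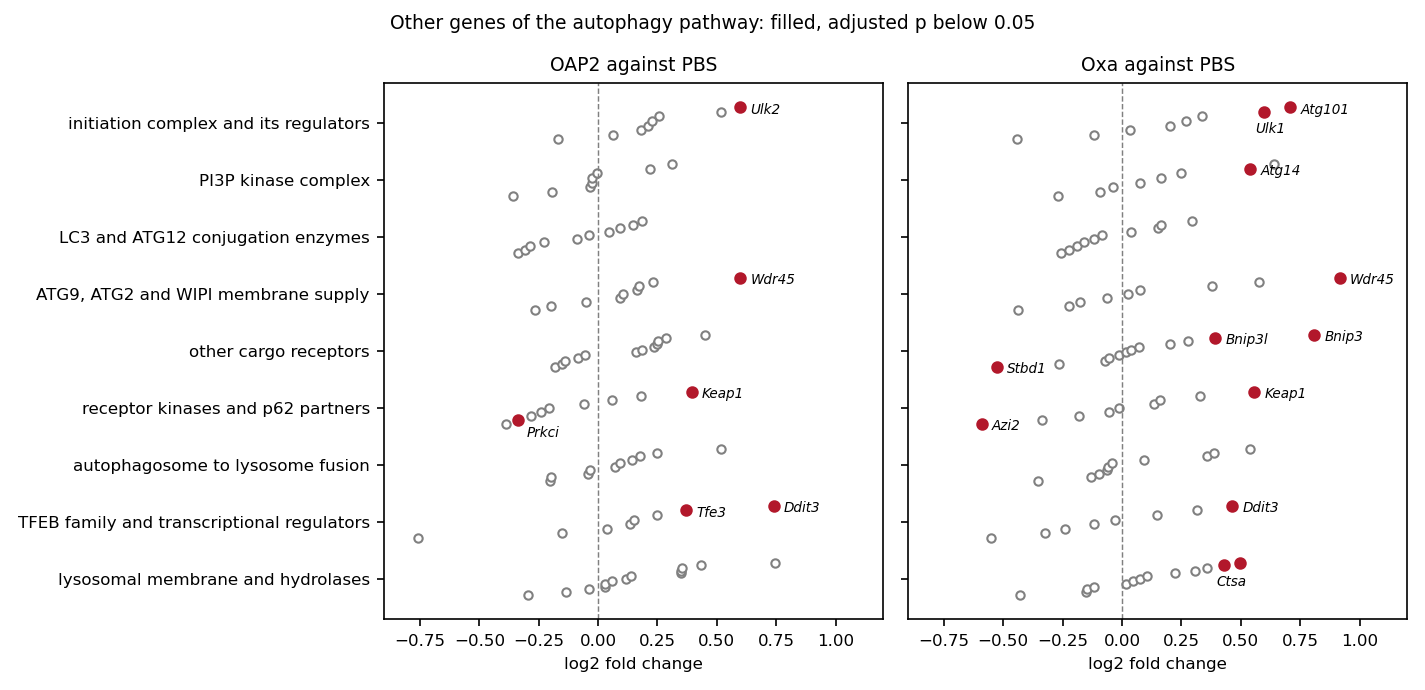
Log2 fold changes of the 87 tested genes of the 9 other pathway lists in OAP2 and in Oxa against PBS, 1 point per gene, with called genes filled and all but 1 of them named. The values are from edgeR with all 12 libraries, by which no conjugation enzyme and no fusion gene is filled in either panel, and Wdr45, Keap1 and Ddit3 are filled in both.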

How the data were processed

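Per the file headers, the deposited table pairs a count with an FPKM value in every library. The authors' counts are estimated counts, whole numbers that were not scaled between libraries. The deposited FPKM values are scaled to library size and, for the 10 genes, to a length that follows the merged exons of each gene's transcript models. The submitters' processing notes list mm9, StringTie 2.1.6, HISAT2 2.2.1, cutadapt 1.9, edgeR and DESeq2, without roles. Positions match GRCm38 instead: 90.9% of 29864 genes stand at the place GENCODE M21 gives them. The sources used here give neither the counting's strand setting nor its treatment of reads with several matches.

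The 12036 genes that reached an FPKM of 1 in 3 or more of the 12 libraries were fitted on TMM-scaled counts with edgeR 4.0.16 (glmQLFit and glmQLFTest, R 4.3.3), 1 mean per group over 4 groups, 2-sided, in 6 comparisons; SE is the log2 fold change over the square root of F. The design had named limma on FPKM as the test if no raw counts were found; as whole-number counts were found, edgeR was used and limma 3.58.1 kept as an alternative. The fit was run on counts simulated from its own estimated means and spreads, with changes set in 200 genes. No library like PBS 2 was simulated, so that run cannot show how well the fit suits these data. Nothing says whether replicates were separate cultures, so the p-values cover the spread among these libraries alone. The common biological coefficient of variation was 18.1%. FPKM rests on transcript models, and StringTie estimates can shift counts between overlapping genes.

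The members and the lists were chosen with earlier results of these data known. All members were named; of each pathway list, up to 5 called genes by smallest p, or the 1 with the smallest p; and for each called member the 3 most correlated genes. Of the genes so named, 2 are not reported here. Alternatives were RLE factors, DESeq2 1.42.0, no filter, limma with pseudocounts of 1 and 0.1, fitting only the 2 groups compared, a replicate block, and leaving out each library. The same alternatives for the pathway genes were added after seeing the data. Replicate numbers did not pair the libraries.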

Additional observations from a re-analysis of the deposited data

How the results depend on the processing

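Counts of the 10 genes called kept within 1.5 times under RLE factors and limma with a pseudocount of 0.1. With DESeq2, 3 were called in OAP2 against Oxa and 1 in OAP2 against APAP; with no filter on low values, 1 each in OAP2 against PBS, Oxa against PBS and Oxa against APAP; with limma on log2(FPKM + 1), 1 in OAP2 against Oxa; with only the 2 groups compared, 0 in OAP2 against PBS, 1 in Oxa against PBS and 2 in OAP2 against Oxa. Leaving out 1 library at a time gave 1 to 2 in OAP2 against PBS, 1 to 4 in Oxa against PBS, 0 to 4 in OAP2 against Oxa, 1 to 4 in Oxa against APAP, and 0 to 0 in APAP against PBS and in OAP2 against APAP. Without a filter more genes share the adjustment, and leave-outs have fewer libraries. Whether either changed these counts was not tested, nor was any other cause. Libraries with the same replicate number did not deviate together (r of -0.152 to 0.155 in 18 pairs), and with a replicate block 1 gene was called in Oxa against APAP, while the other 5 counts did not change.

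All genes called were 632 in OAP2 against PBS (252 to 1976 with a library left out; 1267 with DESeq2; 360 with no filter; 38 with only the 2 groups compared), 1217 in Oxa against PBS (477 to 3066; 2015; 701; 523), 2 in APAP against PBS (0 to 3; 97; 0; 0), 1557 in OAP2 against Oxa (688 to 2743; 2148; 1026; 1876), 57 in OAP2 against APAP (0 to 916; 506; 4; 286; 30 with the replicate block) and 1852 in Oxa against APAP (840 to 3338; 2531; 1139; 4409). The upper counts were reached without PBS 2. Pathway genes called ranged over the leave-outs from 1 to 20, 5 to 27, 0 to 0, 4 to 18, 0 to 8 and 6 to 28 in the same order of comparisons; DESeq2 called 14, 22, 0, 16, 4 and 24, no filter 2, 7, 0, 4, 0 and 11, and only the 2 groups compared 1, 7, 0, 12, 3 and 39.

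Fitted values changed sign in 44 fits, none called in either fit and none over 0.167 in size. Gabarapl1 in OAP2 against APAP was 0.00473 with RLE factors, 0.00472 with DESeq2, 0.00708 with no filter, 0.0152 and 0.0155 with limma at pseudocounts of 1 and 0.1, and 0.00639 with only the 2 groups compared. Optn in OAP2 against Oxa was -0.0126 with no filter, and -0.00729 and -0.00837 with limma; Nbr1 in Oxa against APAP was 0.00875 and 0.00946 with limma. With a library left out, values crossed 0 in OAP2 against PBS for Gabarap (-0.0812 to 0.101), Gabarapl1 (-0.0715 to 0.264), Gabarapl2 (-0.123 to 0.111) and Nbr1 (-0.127 to 0.183), in Oxa against PBS for Nbr1 (-0.00927 to 0.300), and in APAP against PBS for Map1lc3b (-0.0749 to 0.00816), Gabarap (-0.181 to 0.0101), Gabarapl1 (-0.0688 to 0.244), Gabarapl2 (-0.114 to 0.0441), Calcoco1 (-0.167 to 0.264) and Wipi1 (-0.0874 to 0.0625). They also did in OAP2 against Oxa for Optn (-0.0716 to 0.0920) and Gabarapl2 (-0.0310 to 0.227), in OAP2 against APAP for Gabarapl1 (-0.125 to 0.0612) and Gabarapl2 (-0.0879 to 0.145), and in Oxa against APAP for Nbr1 (-0.0952 to 0.00896) and Gabarapl2 (-0.137 to 0.0221). Depth does not limit Sqstm1, with at least 80834 counts per library; Map1lc3a had as few as 189.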
